A study of Mus musculus with 7 samples.

Results

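Red cells carry carbon dioxide, bicarbonate, water and ammonia across their membrane with a small set of abundant proteins. The genes of 6 of them were followed here, chosen by name from the 24341 rows of the deposited expression table: Slc4a1, Aqp1, Car1, Car2, Rhag and Rhd. All 6 passed the filter on low values, among 10541 genes that did. The RNA came from B-cell precursor (BCP) cells of Eμ-Ret mice, which carry an oncogenic Ret fusion driven by the immunoglobulin heavy chain enhancer, so that its expression is directed to the B lineage. Mice of both groups were hemizygous for this transgene on a BALB/c background, and no sample came from a mouse without it. The preleukemic group held 4 samples from young, healthy mice, and the leukemic group held 3 samples from older, moribund mice. The labels state that BCP cells of both groups were sorted from spleen, and the design names them as BP-1+. The paper gives a fuller sorting gate, B220int/CD43int/BP-1hi, for preleukemic cells and reports a high purity of that sort. It identifies blasts of leukemic mice by the same phenotype but states no sorting gate for them. For its in vitro experiments, leukemic cells made up the large majority of spleen cells in most cases and were then used without enrichment. The purity of the sequenced samples was not tested here. Age and disease state changed together between the groups and cannot be told apart.

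In red cells, carbonic anhydrases convert carbon dioxide and water to bicarbonate and a proton, and band 3, the product of Slc4a1, exchanges that bicarbonate for chloride. This exchange lets plasma carry most of the carbon dioxide from tissue to lung. Band 3 also anchors the membrane to the spectrin skeleton through ankyrin, and it assembles with the Rh proteins, Rhag and Rhd, in a larger membrane complex. Aquaporin-1, the product of Aqp1, is the main water channel of the red cell. None of the 6 is a marker of the B lineage, and Car2 and Aqp1 are also known from other tissues, Car2 from bone-resorbing and kidney cells and Aqp1 from endothelium and kidney.

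The upstream sequence of 3 of the 6 genes is shown, as a promoter was matched for these alone. Each run below is the 150 bases before the RefSeq transcription start on GRCm38.p6, plus strand, and capitals mark a match to the letters bound by GATA factors (AGATAA, where the first letter may also be T and the last also G, on either strand).
Rhd, chr4:134864386-134864535: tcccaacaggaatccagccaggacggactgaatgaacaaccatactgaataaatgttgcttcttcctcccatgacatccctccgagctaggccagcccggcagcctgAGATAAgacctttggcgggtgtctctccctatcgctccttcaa
Rhag, chr17:40810999-40811148: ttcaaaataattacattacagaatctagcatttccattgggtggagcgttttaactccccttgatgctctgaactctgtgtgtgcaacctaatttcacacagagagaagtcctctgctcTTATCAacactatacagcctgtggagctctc
Aqp1, chr6:55336149-55336298: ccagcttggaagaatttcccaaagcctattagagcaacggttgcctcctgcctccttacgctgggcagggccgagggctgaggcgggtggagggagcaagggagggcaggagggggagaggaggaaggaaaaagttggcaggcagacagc
The Rhd match begins 43 bases before the start, and the Rhag match, on the minus strand, begins 31 bases before it. No such letters lie in the 250 bases before the Aqp1 start. Of 32851 promoters, 26.5% hold such a match in 250 bases. The CACCC-box letters CCNCNCCC, searched on either strand, matched 3 times before Aqp1, from 248, 190 and 37 bases upstream, and not before Rhd or Rhag, and 45.9% of promoters hold at least 1. None of the 3 promoters held matches of both kinds, so no overlap between them could arise. Slc4a1, Car1 and Car2 were not analysed for promoter letters here.

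The 6 genes hold 2 pairs of relatives, and their coding sequences are shown because values of relatives can be read apart only where their sequence differs. Car1 and Car2 were identical at 63.4% of 778 aligned coding positions, and Rhag and Rhd at 56.0% of 1199. The stretches below are centred on the longest run that each pair shares, in capitals, which is 15 bases for the carbonic anhydrases and 17 bases for the Rh genes.
Car1, coding bases 28 to 114: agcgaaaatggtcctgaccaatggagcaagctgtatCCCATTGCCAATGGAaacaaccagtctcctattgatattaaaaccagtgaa
Car2, coding bases 25 to 111: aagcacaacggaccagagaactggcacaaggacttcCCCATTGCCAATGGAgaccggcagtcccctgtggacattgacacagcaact
Rhag, coding bases 382 to 470: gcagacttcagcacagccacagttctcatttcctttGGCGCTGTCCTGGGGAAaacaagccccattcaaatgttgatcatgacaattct
Rhd, coding bases 343 to 431: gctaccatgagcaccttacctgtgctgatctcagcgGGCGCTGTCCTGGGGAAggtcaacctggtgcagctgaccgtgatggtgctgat
No member shared a 50-base window with another of the 6. Slc4a1, Aqp1, Car2 and Rhd shared none with a transcript of any other gene, Rhag shared 2 of 2290 windows, and Car1 shared 14.5% of its windows with the unlisted gene Gm5843. The share of Car1 reads that could fall on that copy was not tested.

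Values are FPKM, that is fragments per kilobase of transcript and per unit of depth, which allows levels of different genes to be set side by side. Depth, read from the steps of low values, was 15.3 to 16.0 M fragments in leukemic samples and 13.4 to 14.7 M in preleukemic samples. At this depth the lowest value of Slc4a1 stood for about 152 fragments and the lowest of Car1 for about 6.97, a counting error of 37.9%. Enpep, which encodes the sorted antigen BP-1, measured 19.1, 102 and 77.2 FPKM in leukemic and 134 to 210 FPKM in preleukemic samples (limma adjusted p = 0.0688). With 14 other B-cell precursor genes, all of them expressed, its summed FPKM was 4148 to 6530 in leukemic and 7980 to 10118 in preleukemic samples. In bulk samples, fewer cells of a type and less RNA per cell cannot be told apart. Preleukemic replicate 1 stood apart from the other 3 preleukemic samples in 5 of the 6 genes, and values without it are given below.

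All 6 genes were higher in the leukemic samples, and in each of them the lowest leukemic value lay above the highest preleukemic value. The median difference over the 6 was 4.84 on the log2(FPKM + 1) scale, against -0.02 over all genes tested. With limma, all 6 passed an adjusted p of 0.05, beside 8.47% of all genes tested that were called higher and 6.26% that were called lower. All 6 also showed no overlap between the groups, beside 14.9% of all genes with every leukemic value above every preleukemic value. Car1, Slc4a1, Aqp1, Rhd and Rhag ranked 2, 3, 6, 12 and 17 by size of rise, and Car2 ranked 373.

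**Figure D1:**
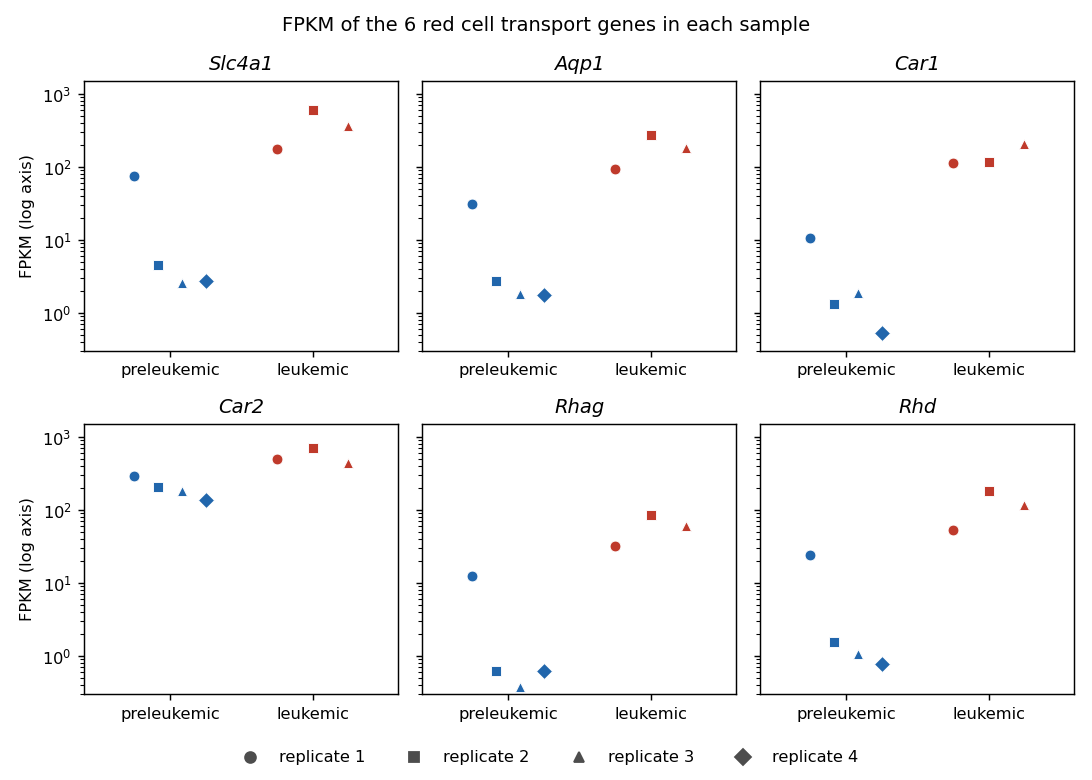
FPKM of the 6 genes (log axis) in each preleukemic (blue, n = 4) and leukemic (red, n = 3) sample, with 1 point per sample and the shape giving the replicate number. Every red point lies above every blue point, preleukemic replicate 1 lies apart from the other blue points in each gene but Car2, and Car2 is above 100 FPKM in all 7 samples.

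Slc4a1 encodes band 3, the chloride and bicarbonate exchanger (chr11:102348820-102365281). Its level was 175, 597 and 365 FPKM in leukemic replicates 1 to 3, and 75.6, 4.49, 2.53 and 2.71 FPKM in preleukemic replicates 1 to 4. Leukemic replicate 2 was highest, and preleukemic replicate 1 was 16.8 times the next preleukemic sample but still below every leukemic one. The means were 379 ± 211 FPKM (SD, n = 3) and 21.3 ± 36.2 FPKM (SD, n = 4), a ratio of 17.7. On the log2(FPKM + 1) scale the leukemic samples were higher by 5.29 (SE 1.09, limma adjusted p = 0.0239). The mean of preleukemic replicates 2 to 4 alone was 3.25 ± 1.08 FPKM.

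Aqp1, the water channel (chr6:55336299-55348555), had the same order of leukemic samples. It measured 94.5, 269 and 179 FPKM in the leukemic samples and 30.7, 2.68, 1.78 and 1.75 FPKM in the preleukemic samples. Again leukemic replicate 2 was highest and preleukemic replicate 1 stood between the groups, 11.5 times the next preleukemic value. The means of 181 ± 87.1 FPKM (SD, n = 3) and 9.22 ± 14.3 FPKM (SD, n = 4) differed by 4.93 on the log2 scale (SE 0.88, limma adjusted p = 0.0172). Because Aqp1 is also an endothelial gene, endothelial markers were read in the same samples. Their summed FPKM was 92.9 to 113 in leukemic and 111 to 117 in preleukemic samples, nearly all of it from Pecam1 and Eng, which did not pass. Plvap, the other endothelial gene that could be tested, passed the filter on low values only through its leukemic values. It measured 2.91, 7.63 and 1.80 FPKM against 0.448, 0.340, 0.159 and 0.162 FPKM and was called higher (limma adjusted p = 0.0245). The other 7 were too low to be tested. Of these, 4 were low but had every leukemic value above every preleukemic value. They were Cdh5 (0.294 to 0.648 against 0.0358 to 0.181 FPKM), Kdr (0.237 to 0.651 against 0.167 to 0.220 FPKM), Tie1 (0.269 to 0.719 against 0.01 to 0.0199 FPKM) and Stab2 (at least 0.312 against at most 0.102 FPKM). The values of Tek, Emcn and Robo4 overlapped between the groups. Among genes that passed the filter, 14.9% had every leukemic value above every preleukemic value. That share does not cover genes as low as these. The part of endothelial cells in the value of Aqp1 was not tested.

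Rhag encodes the Rh-associated glycoprotein, a channel for ammonia and probably carbon dioxide, without which Rh proteins do not reach the membrane (chr17:40811149-40840754). Its level was 32.4, 85.6 and 61.1 FPKM in leukemic samples and 12.6, 0.616, 0.376 and 0.624 FPKM in preleukemic samples. Preleukemic replicates 2 to 4 were below 1 FPKM, and preleukemic replicate 1 was 20.1 times the highest of them. The log2 difference was 4.41 (SE 0.82, limma adjusted p = 0.0184). The 591 genes of chromosome 17 had a median log2 difference of 0.35, with 198 called higher and 3 lower, and the part of this chromosome-wide shift in the value of Rhag was not tested. The chromosomes of the other 5 genes had medians between -0.07 and -0.01.

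Rhd encodes the Rh polypeptide that assembles with Rhag (chr4:134864536-134896172). It measured 52.5, 183 and 117 FPKM in leukemic samples and 24.0, 1.57, 1.05 and 0.783 FPKM in preleukemic samples, a log2 difference of 4.75 (SE 0.95, limma adjusted p = 0.0222). The order of the leukemic samples was that of Slc4a1, Aqp1 and Rhag, with replicate 2 highest, replicate 3 next and replicate 1 lowest. Rhd exceeded Rhag in each of the 7 samples, by 1.25 to 2.79 times.

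Car1 encodes a cytosolic carbonic anhydrase that is abundant in red cells (chr3:14766214-14808365). Its level was 114, 115 and 204 FPKM in leukemic samples and 10.5, 1.31, 1.83 and 0.523 FPKM in preleukemic samples. Here leukemic replicate 3, not 2, was highest, and the lowest leukemic value was 10.8 times preleukemic replicate 1. The means were 144 ± 51.6 FPKM (SD, n = 3) and 3.55 ± 4.70 FPKM (SD, n = 4), a ratio of 40.7. Against preleukemic replicates 2 to 4 alone, at 1.22 ± 0.657 FPKM, the ratio was 118, beside 117 for Slc4a1, 111 for Rhag, 104 for Rhd, 87.4 for Aqp1 and 3.14 for Car2. The log2 difference was 5.42 (SE 0.65, limma adjusted p = 0.00819).

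Car2 encodes the fast cytosolic carbonic anhydrase (chr3:14886426-14900770) and is the member with the narrowest range of values. It measured 498, 716 and 447 FPKM in leukemic samples and 289, 207, 183 and 139 FPKM in preleukemic samples. It was thus well expressed in every sample, and preleukemic replicate 1 was only 1.40 times the next preleukemic value. The means of 554 ± 143 FPKM (SD, n = 3) and 205 ± 62.7 FPKM (SD, n = 4) gave a ratio of 2.71 and a log2 difference of 1.45 (SE 0.26, limma adjusted p = 0.0172). Its highest value over its lowest was 5.14, where the same quotient was between 154 and 390 in the other 5 genes.

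These calls depended on preleukemic replicates 2 to 4 and, for a pair of genes, on leukemic replicate 3. Without leukemic replicate 1 or 2, all 6 were still called higher, beside 8.17% and 8.25% of all genes, and without preleukemic replicate 1 all 6 were called, beside 5.80%. Without leukemic replicate 3 the count was 4 of 6, beside 6.75%, as Rhd (limma adjusted p = 0.0504) and Slc4a1 (limma adjusted p = 0.0535) were lost. Without preleukemic replicate 2, 3 or 4, only Car1 was called, beside 2.80%, 1.90% and 1.02% of all genes, and the log2 differences of the 6 genes stayed between 1.29 and 5.35 in those fits. Exact permutation of the 35 labelings, gene by gene and two-sided, gave p = 0.0286, the smallest it can give, for Car1 and Car2 and p = 0.0571 for the other 4.

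Levels within a sample had a partly fixed order. In each of the 7 samples Car2 was highest and Slc4a1 next, and Aqp1 exceeded Rhd, which exceeded Rhag. Car1 had no fixed place. It came next after Slc4a1 in leukemic replicates 1 and 3 and in preleukemic replicate 3, and last in preleukemic replicates 1 and 4. Among leukemic samples the ranges of Aqp1 (94.5 to 269 FPKM), Car1 (114 to 204 FPKM) and Rhd (52.5 to 183 FPKM) overlapped. Car1 lay above Aqp1 in some samples and below it in others, and the same held against Rhd, so that the place of Car1 beside these neighbours was not set.

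The 6 genes together made 966, 1966 and 1373 FPKM in leukemic samples and 442, 218, 191 and 146 FPKM in preleukemic samples. Car2 alone was 51.5%, 36.4% and 32.6% of this sum in leukemic samples, 65.3% in preleukemic replicate 1 and 95.1% to 96.0% in preleukemic replicates 2 to 4. Without Car2, the sum was 468, 1249 and 926 FPKM against 153, 10.7, 7.57 and 6.39 FPKM. In FPKM, however, Car2 differed between the group means by 349, close to the 358 of Slc4a1 and above the 171 of Aqp1, 141 of Car1, 111 of Rhd and 56.1 of Rhag. The log2 difference of Car2 was thus the smallest of the 6 while its difference in FPKM was the second largest.

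Ratios within a sample show how far the genes kept step. Rhd stood at 0.301, 0.307 and 0.321 of the Slc4a1 level in leukemic samples and at 0.318, 0.349, 0.414 and 0.289 of it in preleukemic samples. Over a span of Slc4a1 levels of 235 times, this ratio varied 1.43 times between its lowest and highest sample. The ratio of Rhag to Slc4a1 varied 1.68 times, from 0.137 to 0.230, and that of Aqp1 varied 1.73 times, from 0.406 to 0.701. For these 3 genes preleukemic replicate 1 had ratios of 0.318, 0.166 and 0.406, next to leukemic values of 0.301 to 0.321, 0.143 to 0.186 and 0.450 to 0.541. Car1 to Slc4a1 varied 5.17 times, with 0.654, 0.193 and 0.559 in leukemic samples and 0.139, 0.291, 0.721 and 0.193 in preleukemic samples, so that the groups overlapped. The low values behind some ratios are coarse, with about 11.1 fragments for the lowest of Rhag. Car2 to Slc4a1 varied 60.1 times. It was 2.85, 1.20 and 1.23 in leukemic samples, 3.82 in preleukemic replicate 1, and 46.1, 72.2 and 51.4 in preleukemic replicates 2 to 4.

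**Figure D2:**
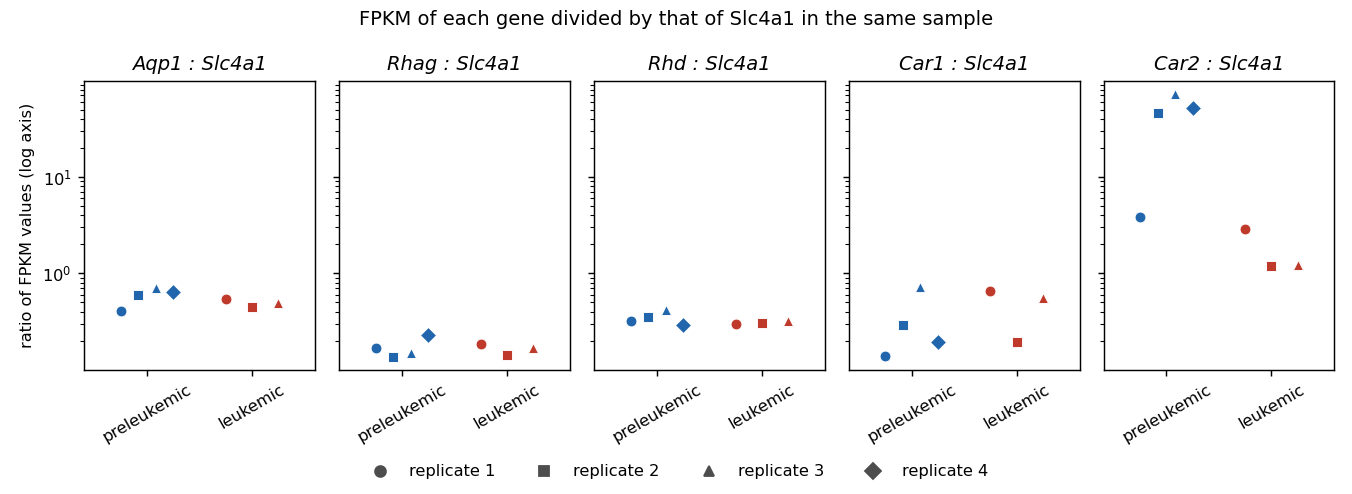
FPKM of Aqp1, Rhag, Rhd, Car1 and Car2 divided by the FPKM of Slc4a1 in the same sample (log axis), for preleukemic (blue, n = 4) and leukemic (red, n = 3) samples. Over the 7 samples the ratio of Aqp1 varies 1.73 times, that of Rhag 1.68 times and that of Rhd 1.43 times, Car1 varies 5.17 times, and Car2 falls from 46.1 to 72.2 in preleukemic replicates 2 to 4 to between 1.20 and 3.82 in the other samples.

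Whether each gene differed by more or less than red cell genes at large was asked against the mean of 17 other erythroid genes, among them Klf1, Gata1 and Alas2, in the same samples. On the log2(FPKM + 1) scale Car2 stood 3.65 ± 0.64 (SD, n = 3) above this mean in leukemic samples and 6.06 ± 1.03 (SD, n = 4) above it in preleukemic samples, a difference of -2.42. Slc4a1 stood 2.96 ± 0.07 above it in leukemic and 1.54 ± 0.75 in preleukemic samples, a difference of 1.42. The differences of Car1, Aqp1, Rhd and Rhag were 1.55, 1.06, 0.88 and 0.55. None passed the exact two-sided permutation test over 35 labelings (p = 0.0571 for each, 0.0571 after adjustment over the 6). The added 1 compresses low values, which are those of the preleukemic samples. With the hemoglobin genes as the reference the differences were 0.42 for Slc4a1, 0.55 for Car1, 0.06 for Aqp1, -0.12 for Rhd, -0.46 for Rhag and -3.42 for Car2, so the sign for Rhd and Rhag depended on the reference.

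Car1 and Car2 lie in a cluster of 4 carbonic anhydrase genes within 259 kb of chromosome 3, in the order Car13, Car1, Car3, Car2, and the other 2 were not called. Car13, a cytosolic relative (chr3:14641727-14663002), measured 14.2, 9.40 and 3.42 FPKM in leukemic samples and 17.9, 12.1, 15.5 and 14.0 FPKM in preleukemic samples. Its log2 difference was -0.82 (SE 0.39, limma adjusted p = 0.177). Car3, the muscle and fat form (chr3:14863538-14872373), measured 5.04, 0.630 and 0.464 FPKM against 3.06, 1.81, 1.97 and 2.27 FPKM, a log2 difference of -0.41 (SE 0.49, limma adjusted p = 0.574). Car1 exceeded Car3 by far in the leukemic samples, and in preleukemic replicates 2 to 4 its level was below that of Car3. Car2 exceeded Car1 by 4.36, 6.23 and 2.19 times in leukemic samples and by 27.4, 158, 100 and 266 times in preleukemic samples.

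**Figure D3:**
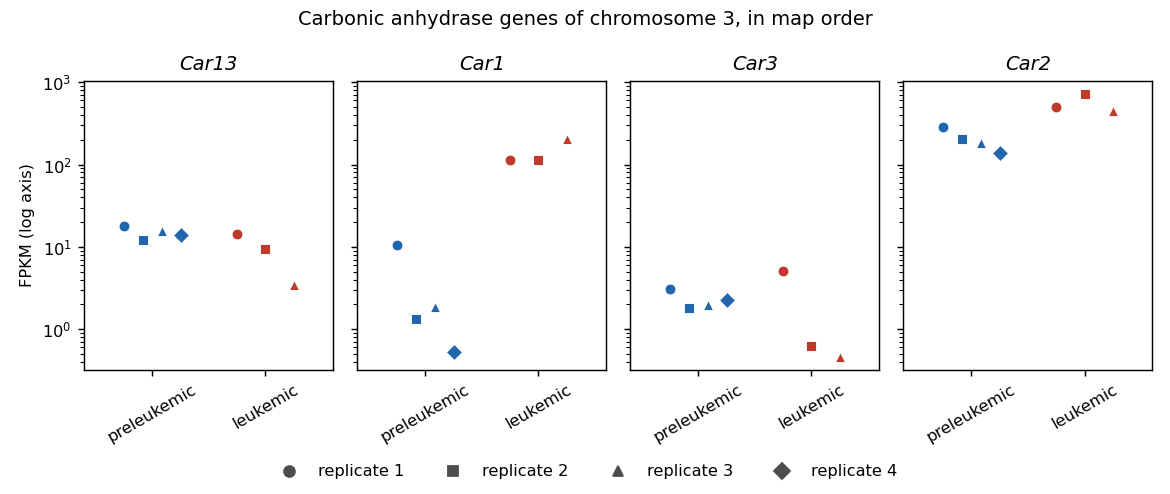
FPKM (log axis) of the 4 neighbouring carbonic anhydrase genes of chromosome 3, in map order from left to right, in preleukemic (blue, n = 4) and leukemic (red, n = 3) samples. Car1 and Car2 have every red point above every blue point, and Car13 and Car3 do not.

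The relatives of the 6 genes in their own families were mostly at or near the lowest listed values. Of 36 other members of the Slc4, aquaporin, carbonic anhydrase and Rh families, 6 passed the filter on low values and 10 were at the lowest listed value of 0.01 FPKM in all 7 samples. Of the 6 tested, 1 was called higher and 0 lower at an adjusted p of 0.05, and their median log2 difference was -0.23. Over all genes tested, 8.47% were called higher and 6.26% lower, and so few relatives cannot be set against these shares. The gene called was Aqp9, a channel for glycerol and water, at 2.80, 9.64 and 6.08 FPKM in leukemic samples and 1.30, 0.01, 0.0295 and 0.150 FPKM in preleukemic samples (log2 difference 2.35, limma adjusted p = 0.0181). Aqp9 passed the filter only through its leukemic values. Slc4a2, the anion exchanger of most other cells, measured 18.9, 18.2 and 20.1 FPKM against 21.6, 21.7, 23.3 and 22.8 FPKM and did not pass (log2 difference -0.22, limma adjusted p = 0.0845). In preleukemic replicates 2 to 4 its level was above that of Slc4a1, and in all other samples it was below. Slc4a7, a sodium and bicarbonate cotransporter, ranged from 23.2 to 39.2 FPKM in leukemic and from 32.5 to 43.8 FPKM in preleukemic samples (limma adjusted p = 0.374). The other Rh family members, Rhbg and Rhcg, were at most 0.127 and 0.0981 FPKM.

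Band 3 and the Rh proteins sit in the membrane with glycophorins, blood group proteins and the spectrin skeleton. Of 18 such partner genes, 16 were called higher, 0 lower and 2 did not pass, and their median log2 difference was 3.25. Beside them, 8.47% of all genes tested were called higher and 6.26% lower. Ermap, which carries the Scianna blood group, measured 23.6, 81.2 and 52.2 FPKM in leukemic samples and 11.9, 0.677, 0.381 and 0.337 FPKM in preleukemic samples (log2 difference 4.24, limma adjusted p = 0.0224). As in Rhag and Rhd, leukemic replicate 2 was highest and preleukemic replicate 1 stood between the groups.

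Among the partners called higher, Cd47, Bsg and Gypc had the smallest log2 differences. Bsg, or basigin, a chaperone of lactate transporters, measured 191, 302 and 236 FPKM against 145, 111, 131 and 117 FPKM (log2 difference 0.92, limma adjusted p = 0.0172). Cd47, a part of the Rh complex and a widespread signal against engulfment, rose by 0.89 and Gypc, a glycophorin tied to the skeleton, by 1.21 on the log2 scale. Add1, a widespread adducin, measured 66.6, 104 and 78.2 FPKM against 67.3, 57.8, 65.4 and 67.5 FPKM and did not pass (limma adjusted p = 0.161). Xk, the partner of the Kell protein, measured 4.13 to 11.1 FPKM against 3.24 to 5.31 FPKM and did not pass either (limma adjusted p = 0.157).

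**Figure D4:**
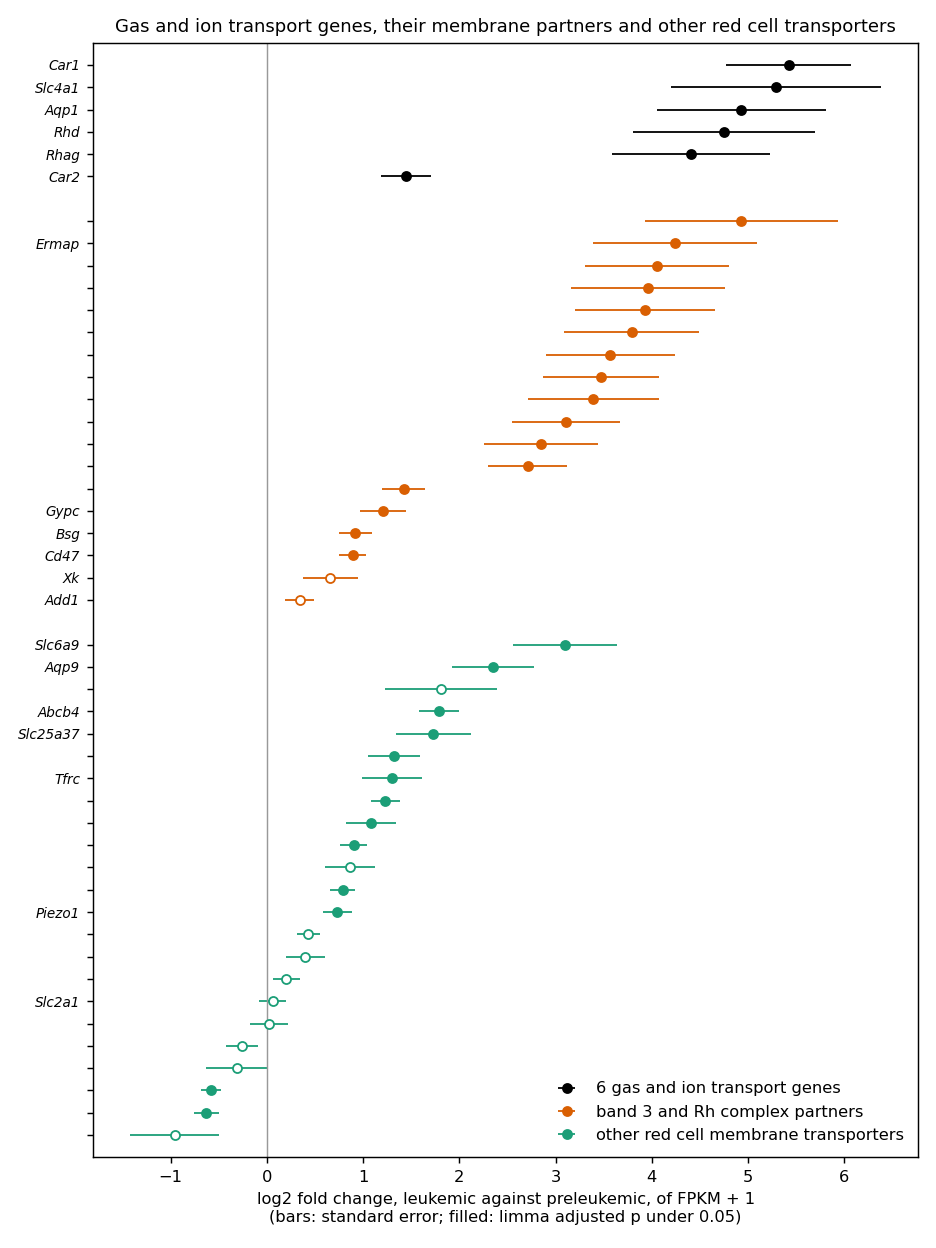
Log2 difference, leukemic (n = 3) against preleukemic (n = 4), of FPKM + 1 for the 6 genes (black), 18 membrane partners (orange) and 23 other transport genes listed for red cells that were tested (green), with bars giving the standard error and filled points an adjusted p under 0.05 with limma. Names are given for the genes described in the text. The black and orange points all lie above 0, and the green points lie on both sides of it.

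Other transport genes listed for red cells were divided. The list is loose, as it also holds Tfrc, a receptor, and Slc25a37, which acts in mitochondria and not in the red cell membrane. Of 24 listed, 23 were tested, 11 were called higher, 2 lower and 10 did not pass, with a median log2 difference of 0.79. The shares over all genes tested were 8.47% higher and 6.26% lower. Slc6a9, a glycine transporter, measured 7.38, 24.3 and 17.1 FPKM in leukemic samples and 3.44, 0.491, 0.305 and 0.286 FPKM in preleukemic samples (log2 difference 3.10, limma adjusted p = 0.0168). Abcb4, a phospholipid transporter, rose by 1.79, Slc25a37, which brings iron into mitochondria, by 1.73, and Tfrc, the transferrin receptor, by 1.30 on the log2 scale. Piezo1, the mechanically gated cation channel, rose by 0.73. Slc2a1, a glucose transporter, was between 9.84 and 14.7 FPKM in all 7 samples (limma adjusted p = 0.786).

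Hemoglobin genes were also higher in the leukemic samples. All 4 globin genes that could be tested were called higher, beside 8.47% of all genes tested, with a median log2 difference of 4.89. Hba-a1 measured 844, 4013 and 1983 FPKM in leukemic samples and 401, 26.8, 38.2 and 33.9 FPKM in preleukemic samples (log2 difference 4.92, limma adjusted p = 0.0224). Hba-a2 is a near copy of Hba-a1 and its values are uncertain, as reads can be split between them. Hbb-b1, the adult beta globin, measured 3293, 17338 and 8070 FPKM against 1577, 129, 143 and 168 FPKM. The sum of the hemoglobin list was 4567 to 23768 FPKM in leukemic samples, 2260 FPKM in preleukemic replicate 1 and 174 to 229 FPKM in preleukemic replicates 2 to 4.

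The genes with the nearest profile were named by the root mean square difference, over the 7 samples, between log2(FPKM + 1) values less their own mean. For Rhag they were Hemgn (0.13), Tspan33 (0.16) and Ermap (0.16). Among the 3 nearest to Rhd were Hemgn (0.24) and Tmcc2 (0.28), and among those of Aqp1 were Hemgn (0.28) and Alas2 (0.29), the first enzyme of erythroid heme synthesis. Those of Slc4a1 included Hba-a1 (0.44) and Alas2 (0.45). For Car1 the nearest gene outside the 6, Hemgn, differed by 0.76. Among the 6, Aqp1 and Rhd were closest (0.14), Car1 was 0.65 to 0.83 from Slc4a1, Aqp1, Rhag and Rhd, and Car2 was 1.70 to 2.25 from the other 5.

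The nearest genes of Car2 were not those of the other 5. They were Odc1 (0.11), ornithine decarboxylase of polyamine synthesis, Siglece (0.16) and Clec12a (0.17), a pair of myeloid surface lectins. Odc1 measured 80.2, 113 and 69.4 FPKM in leukemic samples and 49.4, 35.8, 29.2 and 26.9 FPKM in preleukemic samples. Siglece was at 2.61, 3.91 and 2.62 FPKM against 0.987, 0.499, 0.220 and 0.312 FPKM. The likeness is on the log2(FPKM + 1) scale and not in level, and it is a description over 7 samples. At values as low as those of Siglece and Clec12a the added 1 compresses differences, so their ratios of FPKM between samples need not match those of Car2.

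Markers of other cells moved in the same samples. The counts below stand beside 8.47% of all genes tested that were called higher and 6.26% that were called lower. All 17 erythroid reference genes that could be tested were called higher, with a summed FPKM of 494 to 1718 in leukemic samples, 237 in preleukemic replicate 1 and 15.1 to 20.1 in preleukemic replicates 2 to 4. Of 11 macrophage genes tested 8 were called higher, with sums of 170 to 392 against 39.4 to 92.5 FPKM, and no listed gene at the lowest value. Of 11 neutrophil genes 4 were called higher, with sums of 1424 to 1767 against 150 to 871 FPKM. Of 10 platelet genes listed, 4 were tested. These 4 passed the filter only through their leukemic values, so calls of higher among them were close to set beforehand. All 4 were called higher. The sums of the list were 14.5 to 56.9 against 1.74 to 3.68 FPKM, and Gp1bb and Gp6 were at the lowest listed value in preleukemic replicates 2 to 4. The part of any of these cells in the values of the 6 transport genes was not tested. Of 15 B-cell precursor genes, 4 were called lower and 11 did not pass.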

How the data were processed

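The authors sequenced stranded mRNA libraries from sorted BCP cells, 4 preleukemic samples and 3 leukemic ones. The authors deposited FPKM values for 24341 genes on GRCm38 (mm10), and no value is below 0.01. The submitters' processing notes name STAR 2.5.0b, Bowtie, bedtools 2.17.0, Cufflinks 2.2.1 and DESeq2. The annotation and the counting setting are not given in the sources used here. The paper's count model could not be used on FPKM, so limma took its place, with its filter (a sum of at least 10, here of FPKM) and its threshold (0.05). A gene low in preleukemic samples can pass this filter through its leukemic values alone, which favours calls of higher among such genes.

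Group differences of log2(FPKM + 1) were fitted in R 4.3.3 by limma 3.58.1, using lmFit and then eBayes with trend on and no covariates, and p-values were adjusted (Benjamini-Hochberg) over all 10541 genes. A fold change on this scale understates that of low genes. Tables, exact permutation tests and figures were made in Python 3.11.15 (numpy 2.4.6, pandas 2.3.3, matplotlib 3.10.9). Samples were grouped by their labels, and p-values measure the spread between these samples. In no pair of samples was more than 1 value above the floor equal.

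Depth came from the low values of 2243 genes that have 1 transcript of over 1500 bases (effective length 200 bases shorter), of which 76.7% to 82.1% per sample came out whole within 0.1. Counting errors cover counting alone. Promoters are from RefSeq, where 3 of the 6 symbols matched, and coding sequences from GENCODE M21. The symbols Epb41 and Epb42 are Epb4.1 and Epb4.2 in the table, and Ahsp, Hbb-b2 and Ly6g were not matched.

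The 6 genes and the gene lists were chosen with earlier results of these data known. Genes were named by a rule: of each list, the 3 highest and 3 lowest log2 fold changes among those called and the 3 highest means, and the 3 genes nearest in profile to each of the 6. Some genes that this rule names are not reported here, though they stay in the counts and sums. Ratios to Slc4a1, differences in FPKM, the carbonic anhydrase cluster, and Xk, Slc2a1, Rhbg, Rhcg and the single cell type markers were chosen after their values were seen. Alternatives were a pseudocount of 0.1, no filter or an FPKM sum of at least 70, quantile normalization, no trend, a replicate block, each sample left out, and the hemoglobin list as reference.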

Additional observations from a re-analysis of the deposited data

Results flagged for a closer look

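In 5 of the 6 genes preleukemic replicate 1 lay far from the other 3 preleukemic samples. Its gap to the nearest of them, divided by the range of the 4, was 0.973 for Slc4a1 (75.6 FPKM), 0.968 for Aqp1 (30.7 FPKM), 0.870 for Car1 (10.5 FPKM), 0.980 for Rhag (12.6 FPKM) and 0.966 for Rhd (24.0 FPKM), each above Dixon's 95% critical value for 4 samples. Car2 did not pass that value. Of the 12 groups of values checked (FPKM and the difference from the erythroid reference, gene by gene), chance alone would mark about 1 in 20, and the 5 marks come from 1 sample. Above the mean of preleukemic replicates 2 to 4, this sample held 72.4 FPKM of Slc4a1, 28.6 of Aqp1, 9.33 of Car1, 12.0 of Rhag, 22.9 of Rhd and 112 of Car2. The sum of erythroid reference genes in it was 237 FPKM, against 15.1 to 20.1 FPKM in the other 3. The cause was not tested.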

How the results depend on the processing

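All 6 genes were called under each of 5 settings, and no log2 difference of theirs changed sign under any setting run. Over all genes, calls in either direction were 1517 of 10541 with a pseudocount of 0.1 and 1711 of 16676 with no filter. They were 951 of 7069 with an FPKM sum of at least 70, 1661 of 10541 with quantile normalization and 1463 of 10541 with no intensity trend. With the replicate block, limma called 0 of 10541 genes (2429 at an unadjusted p under 0.05), so 0 of the 6 genes (6 unadjusted, adjusted p from 0.137 to 0.147), 0 of 18 partners (16 unadjusted), 0 of 23 other transporters (14 unadjusted), 0 of 6 family relatives (2 unadjusted) and 0 of 4 hemoglobin genes (4 unadjusted). Only the preleukemic group has a replicate 4, so the block fits that sample exactly and the difference rests on the same-numbered pairs. The log2 differences with the block therefore equalled those without preleukemic replicate 4, such as 4.89 for Slc4a1 and 1.29 for Car2. So few pairs also leave little from which to estimate the spread. Taken as differences from the mean of their group, same-numbered samples correlated by 0.03, 0.05 and -0.09 over 10541 genes. Pairs with unlike numbers correlated by -0.11 to 0.11. So few pairs cannot show whether samples of the same number were handled together. Leaving out each sample in turn gave 1 to 6 of the 6 genes, 0 to 17 partners (16 unadjusted where 0), 2 to 14 other transporters, 0 to 2 family relatives (2 to 3 unadjusted where 0) and 0 to 4 hemoglobin genes (4 unadjusted where 0), with the low counts without preleukemic replicate 2, 3 or 4. An FPKM sum of at least 70 left 3 family relatives and 0 called (1 unadjusted). With a pseudocount of 0.1 the differences from the erythroid reference were 0.85 for Slc4a1, 0.60 for Aqp1, 1.36 for Car1, -3.26 for Car2, 0.67 for Rhag and 0.65 for Rhd (exact permutation, adjusted p from 0.0686 to 0.114). With hemoglobin as the reference the differences were 0.42 for Slc4a1, 0.06 for Aqp1, 0.55 for Car1, -3.42 for Car2, -0.46 for Rhag and -0.12 for Rhd (exact permutation, adjusted p from 0.343 to 0.886). The causes were not tested. Depth limits the low values, with about 11.1 fragments of Rhag and 13.8 of Rhd in their lowest samples.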
